A study of Mus musculus with 8 samples.

Results

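CTLA-4, ICOS and the other immune checkpoint receptors were followed as transcripts of regulatory T cells (Tregs), a CD4+ lineage that holds other immune cells in check. The group holds 10 genes, Ctla4, Icos, Cd28, Pdcd1, Btla, Tigit, Lag3, Havcr2, Cd96 and Cd226, chosen by name. All 10 had 1 probe set (the group of probes that measures 1 transcript) annotated to that gene alone, among the 19937 genes measured. The Tregs came from bone marrow chimeras. Lethally irradiated CD3ε-/- mice, which cannot assemble the T cell receptor (TCR) complex and so form no T cells of their own, were given wild-type marrow to make WT chimeras, or marrow of donors called IIKO to make IIKO chimeras. Per the labels, peripheral Tregs in IIKO chimeras have no TCR contact with MHC class II, and the mice were C57BL/6 aged 6 to 8 weeks. Both groups thus share the CD3ε-/- host, and only marrow-derived cells carry the donor genotype. At 28 days CD4+ TCRβ+ CD25+ cells from lymph nodes and spleen were sorted, and 100 ng of RNA per sample was put on 1 Affymetrix array, with 4 biological replicates a group. How many mice a sample pools is not given in the sources used here, so the spread behind each p-value is that between these samples, which may be partly technical.

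Checkpoint receptors set how strongly a T cell responds once its TCR is engaged. CD28 and its relative ICOS add a positive signal when they bind CD80, CD86 or ICOS ligand on an antigen-presenting cell. CTLA-4 binds CD80 and CD86 more tightly than CD28 does, and Tregs use it to strip these ligands from antigen-presenting cells. PD-1 (Pdcd1) and BTLA recruit phosphatases that dampen the TCR signal. TIGIT and CD96 compete with the activating receptor CD226 for nectin-family ligands, LAG-3 binds MHC class II itself, and TIM-3 (Havcr2) binds galectin-9 among other ligands. Several of these genes are known to be induced by TCR signals, which is what the comparison of IIKO with WT chimeras bears on. Arrays measure transcripts, and CTLA-4 protein lies largely inside the cell, so nothing here measures surface levels.

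The values are log2 expression, and the 8 array medians lay between 6.96 and 7.03. Foxp3, which encodes the factor that fixes Treg identity, was at 10.58 to 10.68 in WT and 10.53 to 10.81 in IIKO arrays. Il2ra, the gene of the sort marker CD25, was at 11.954 to 12.056 and 12.057 to 12.246, higher in every IIKO array (0.17 ± 0.06, SE; limma adjusted p = 0.211). The mean of 5 Treg and T cell markers (Foxp3, Il2ra, Cd4, Cd3e and Ikzf2) ran from 11.432 to 11.451 in WT and from 11.452 to 11.568 in IIKO arrays, also without overlap. The mean level of 9 markers of B and plasma cells ran from 5.72 to 5.92 in WT and from 5.69 to 5.81 in IIKO arrays, and 6 of the 9 lay below the lower quartile of all gene levels (6.04). The mean of 12 myeloid and dendritic cell markers ran from 6.10 to 6.27 and from 6.01 to 6.34, with 4 of the 12 below that quartile. The mean of 10 NK and CD8 T cell markers ran from 7.002 to 7.093 and from 6.925 to 7.221, with 3 of the 10 below it. The last list holds Gzmb, which Tregs also transcribe, at 11.72 to 12.20, and Tyrobp, which myeloid cells also transcribe, at 9.70 in IIKO array 3 and 7.77 to 8.94 in the other arrays. IIKO array 3 had the highest myeloid and the highest NK and CD8 mean of the 8 arrays. For the 3 measured erythroid markers the mean ran from 6.82 to 6.95 and from 6.56 to 6.90.

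None of the 10 checkpoint receptor transcripts differed between IIKO and WT chimera Tregs past the test used (limma, Benjamini-Hochberg adjusted p under 0.05 over all 19937 genes). Of all genes, 57 passed (0.286%), 32 higher and 25 lower in IIKO chimeras; with each array centred on its median, 58 were higher and 23 lower. Lag3, the receptor that binds MHC class II, had the widest difference, 1.35-fold higher in the IIKO chimeras. Ctla4, Icos, Tigit, Cd28, Cd226 and Btla had positive differences of at most 0.14 log2, and Pdcd1, Cd96 and Havcr2 had negative ones of at most 0.11 in size, where Havcr2 turned positive with arrays centred on their medians. In a bulk sample, fewer cells that carry a transcript and less RNA per cell cannot be told apart.

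At an unadjusted limma p under 0.05 lay 2 of the 10, Lag3 and Ctla4, both higher in the IIKO chimeras, against 17.3% of all genes in either direction, 5.27% higher and 12% lower. Over either direction, 2 of 10 is near the share among all genes. Lag3 lay under this limit in every alternative run (unadjusted limma p from 0.00122 to 0.0118). Ctla4 did not with the replicate number as a block (0.0804), after a further quantile normalization (0.0547), or when any array other than WT array 3 or IIKO array 3 was left out (0.0569 to 0.118). With arrays centred on their medians 4 receptors lay under it, Tigit and Cd28 being the others, against 14.9% of all genes. For 3 of the 10, Lag3, Ctla4 and Tigit, every IIKO array lay above every WT array, against 10.5% of all genes without overlap, 2.83% higher and 7.69% lower. The Treg and T cell marker mean was also higher in every IIKO array, though barely (11.452 or more, against 11.451 or less in WT). Of its 5 genes, 4 had positive differences and Cd3e a negative one (-0.03). The part of this mean in the receptor differences was not tested. The median difference of the 10 was 0.10 log2, against -0.04 over all genes. After a further quantile normalization these medians were 0.08 and -0.0069, and with arrays centred on their medians 0.15 and 0.01. All 10 receptors belong to the brighter 9968 genes, whose median difference was 0.01, while the dimmer 9969 had a median of -0.07. With these brighter genes tested alone, 15.4% of them lay under an unadjusted limma p of 0.05, 8.44% higher and 7% lower.

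**Figure D1:**
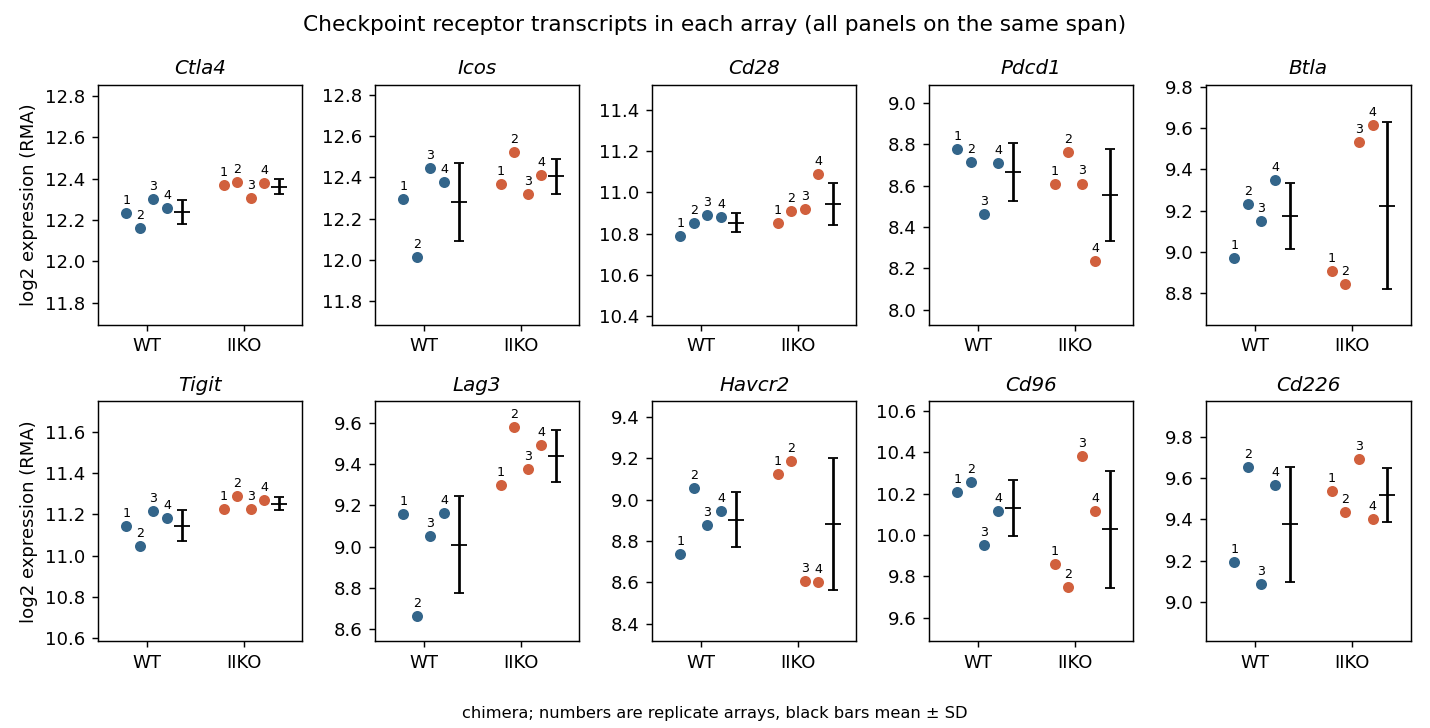
Log2 expression (vertical axis) of each of the 10 receptor genes in the 4 WT (blue) and 4 IIKO (orange) arrays, numbered by replicate; black bars are the group mean ± SD and all panels span the same log2 range. For Lag3, Ctla4 and Tigit all IIKO points lie above all WT points, by 0.13 log2 for Lag3 and by under 0.01 for the other two, and for Btla and Havcr2 the IIKO points fall apart into 2 pairs.

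The receptors of the CD28 family that share a locus came first. Cd28, Ctla4 and Icos lie next to each other on chromosome 1, with 0 protein-coding genes between neighbours in the reference gene table (assembly GRCm38.p6). Ctla4 was at 12.23, 12.16, 12.30 and 12.26 in WT arrays 1 to 4 and at 12.37, 12.39, 12.31 and 12.38 in IIKO arrays 1 to 4. The groups did not overlap, but only 0.0076 log2 separated the highest WT array from the lowest IIKO array. The group means were 12.24 ± 0.06 for WT and 12.36 ± 0.04 for IIKO (SD, 4 arrays). They differed by 0.12, with 95% confidence limits of 0.0049 and 0.24, and the gene did not pass the test (limma adjusted p = 0.272).

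Icos, the costimulatory receptor that sustains effector Tregs, was at 12.29, 12.01, 12.44 and 12.38 in WT arrays 1 to 4. It was at 12.37, 12.52, 12.32 and 12.41 in the IIKO arrays, so that the groups overlapped and WT array 2 stood lowest of all. The difference of 0.12 ± 0.09 (SE) was as large as that of Ctla4, with a wider interval of -0.08 to 0.33 (limma adjusted p = 0.499). Without WT array 2 it was 0.03. Cd28, the receptor of the first costimulatory signal, was at 10.79 to 10.89 in WT and 10.85 to 11.09 in IIKO arrays. The groups overlapped, and IIKO array 4 was highest. Its difference was 0.09 ± 0.06 (SE), with an interval of -0.05 to 0.23 (limma adjusted p = 0.472), and it was 0.04 without IIKO array 4. With all arrays, the differences of the 3 neighbours on chromosome 1 were 0.09 to 0.12 log2, and none passed.

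To show the DNA before the genes whose IIKO arrays all lay above the WT arrays, the 250 bases before a RefSeq transcription start of Ctla4 (chr1:60908775-60909024, plus strand) and Tigit (chr16:43664185-43664434, minus strand) are printed 5′ to 3′ on the gene's strand, from the GRCm38.p6 promoter table. Lag3, Icos and Cd28 were not matched there. Capitals mark matches, on either strand, to 4 short motifs of factors active in T cells: TGGAAA for NFAT, TGTGGT for RUNX, TGANTCA for AP-1 and TGTTTAC for forkhead factors such as Foxp3; no matches overlap.
Ctla4: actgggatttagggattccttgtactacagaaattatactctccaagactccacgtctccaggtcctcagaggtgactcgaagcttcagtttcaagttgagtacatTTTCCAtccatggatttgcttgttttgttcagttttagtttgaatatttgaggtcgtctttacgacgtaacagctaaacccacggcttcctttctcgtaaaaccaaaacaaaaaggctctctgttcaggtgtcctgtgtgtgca
Tigit: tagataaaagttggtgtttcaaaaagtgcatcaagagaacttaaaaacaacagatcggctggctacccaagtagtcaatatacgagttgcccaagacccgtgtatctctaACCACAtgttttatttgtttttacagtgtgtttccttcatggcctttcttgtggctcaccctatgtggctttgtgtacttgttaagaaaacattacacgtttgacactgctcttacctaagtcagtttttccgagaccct
The Ctla4 stretch held 1 match, of the NFAT motif on the opposite strand, 144 to 139 bases before the start. The Tigit stretch also held 1, of the RUNX motif on the opposite strand, 140 to 135 bases before the start. Of all 32851 RefSeq promoters of this length, 18.6% held the NFAT letters, 14% the RUNX letters, 6.75% the AP-1 letters and 3.17% the forkhead letters. A match describes letters and shows no binding.

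PD-1 and BTLA, the phosphatase-recruiting inhibitors, had no shared direction. Pdcd1 was at 8.78, 8.72, 8.46 and 8.71 in WT and at 8.61, 8.76, 8.61 and 8.24 in IIKO arrays. The groups overlapped, with IIKO array 4 lowest. The difference was -0.11 ± 0.11 (SE; limma adjusted p = 0.618), and -0.0057 without IIKO array 4. Btla, whose ligand is the TNF receptor family member HVEM, was at 8.97, 9.23, 9.15 and 9.35 in WT arrays. In IIKO arrays 1 and 2 it was at 8.91 and 8.84, below every WT array, and in IIKO arrays 3 and 4 at 9.53 and 9.61, above every WT array. The difference of the means was 0.05 ± 0.17 (SE; limma adjusted p = 0.902). It was -0.05 without IIKO array 3 and -0.08 without IIKO array 4.

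Among the receptors of nectin-family ligands, Tigit, the inhibitory one that marks suppressive Tregs, was at 11.14, 11.05, 11.21 and 11.18 in WT arrays and at 11.22, 11.29, 11.23 and 11.27 in IIKO arrays. The groups did not overlap, with 0.0096 log2 between them. The means were 11.15 ± 0.07 and 11.25 ± 0.03 (mean ± SD of 4 arrays), and the difference of 0.11 had an interval of -0.02 to 0.23 (limma adjusted p = 0.344). Cd226, the activating counterpart, was at 9.19, 9.65, 9.09 and 9.57 in WT and at 9.54, 9.44, 9.69 and 9.40 in IIKO arrays. Its WT arrays fell apart, with arrays 2 and 4 inside the IIKO range and arrays 1 and 3 below it. The difference was 0.14 ± 0.13 (SE; limma adjusted p = 0.569), and 0.05 without WT array 3 or 0.23 without WT array 2. Cd96, the third receptor of this set, was at 10.21, 10.25, 9.95 and 10.12 in WT arrays and at 9.86, 9.75, 10.38 and 10.11 in IIKO arrays. As for Btla, IIKO arrays 1 and 2 were below every WT array, but IIKO array 4 lay within the WT range. The difference was -0.11 ± 0.13 (SE; limma adjusted p = 0.688), and -0.013 without IIKO array 2 or -0.22 without IIKO array 3.

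Lag3, whose product binds MHC class II outside the TCR, was at 9.16, 8.66, 9.05 and 9.16 in WT arrays and at 9.30, 9.58, 9.38 and 9.49 in IIKO arrays. Every IIKO array lay above every WT array, by 0.13 log2 at the nearest pair. The means were 9.01 ± 0.24 and 9.44 ± 0.13 (mean ± SD of 4 arrays). The difference of 0.43 ± 0.11 (SE) had an interval of 0.18 to 0.68, and with an adjusted p of 0.16 (limma, Benjamini-Hochberg over all genes) it did not pass. Across the alternatives run, the adjusted p of Lag3 ran from 0.123 to 0.274 and its difference from 0.31, without WT array 2, to 0.48. Lag3 and Cd4 are direct neighbours on chromosome 6, and Cd4 differed by 0.13 ± 0.06 (SE; limma adjusted p = 0.289). NK and CD8 T cells also transcribe Lag3. The mean of their markers was 7.09, 7.04, 7.06 and 7.002 in WT arrays 1 to 4 and 7.065, 7.046, 7.221 and 6.925 in IIKO arrays 1 to 4. Its part in the Lag3 difference was not tested.

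Havcr2, which encodes TIM-3, was at 8.74, 9.06, 8.88 and 8.95 in WT arrays. In IIKO arrays 1 and 2 it was at 9.13 and 9.19, above every WT array, and in IIKO arrays 3 and 4 at 8.61 and 8.60, below every WT array. Its mean difference was -0.02 ± 0.14 (SE; limma adjusted p = 0.943). Myeloid cells also transcribe Havcr2. The myeloid marker mean was 6.18, 6.12, 6.34 and 6.01 in IIKO arrays 1 to 4, and its part in the spread of Havcr2 was not tested.

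**Figure D2:**
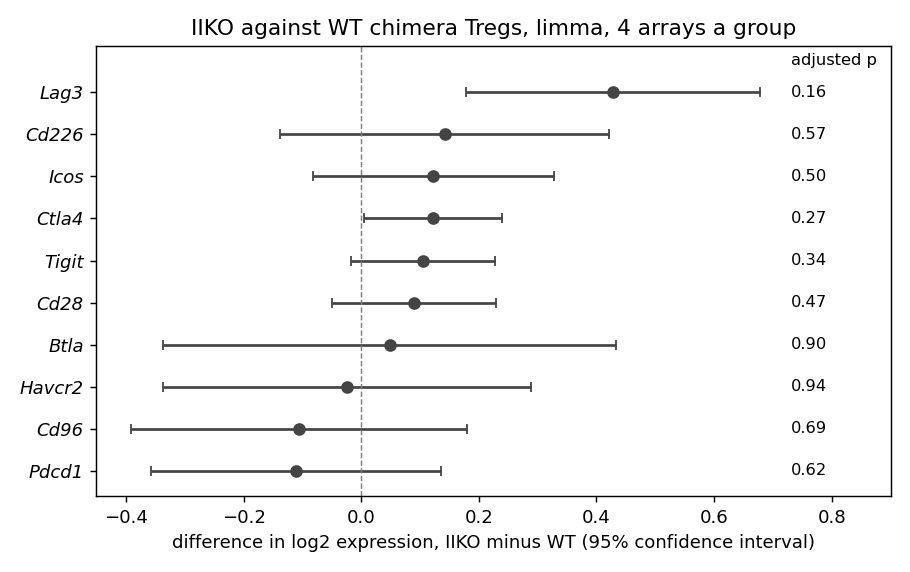
Difference in log2 expression between IIKO and WT chimera Tregs (horizontal axis, IIKO minus WT) for the 10 receptors, with limma's 95% confidence interval and Benjamini-Hochberg adjusted p. The interval of Lag3 (0.18 to 0.68) and, barely, that of Ctla4 (0.0049 to 0.24) lie above 0, and no adjusted p is under 0.05.

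The receptors differed in how far the arrays of a group lay apart. In 5 of the 10 (Btla, Havcr2, Cd96, Cd28 and Pdcd1) the SD was higher among IIKO arrays and in the other 5 among WT arrays. The SD of Btla was 0.16 in WT and 0.40 in IIKO arrays, and that of Havcr2 was 0.13 and 0.32. Over all genes the median SD was 0.10 in either group, and 1.02% of genes had an IIKO SD at least that of Btla. Tigit and Ctla4 were among the tightest, with IIKO SDs of 0.03 and 0.04. Among WT arrays, array 2 was the lowest for Ctla4, Icos, Tigit and Lag3, and among IIKO arrays, array 2 was the highest for all 4. The marker means of other cell types did not set IIKO arrays 1 and 2 on one side and 3 and 4 on the other. Some single markers in those lists did, and their part was not tested. Klrg1, an inhibitory receptor of effector Tregs named here after its values were seen, was split like Havcr2, at 11.17 and 11.39 in IIKO arrays 1 and 2 and at 10.60 and 10.37 in arrays 3 and 4, with WT arrays between 10.80 and 11.01. Genes of other kinds in the lists, such as Cd274, also had IIKO arrays 1 and 2 above arrays 3 and 4. The share of all genes with such a split was not counted. What set these IIKO arrays apart was not tested.

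**Figure D3:**
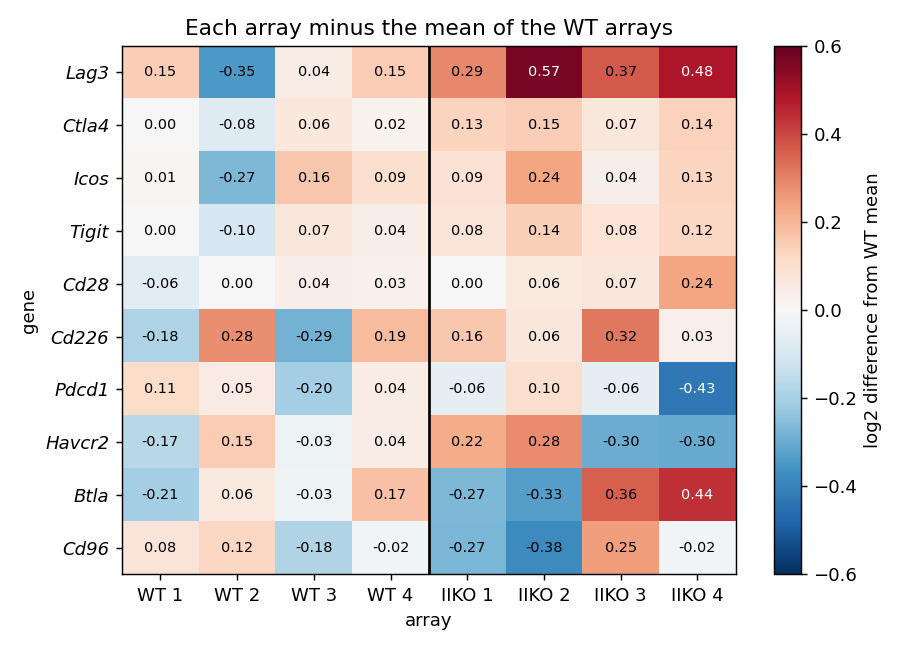
Each cell is the log2 level of a receptor gene (rows) in 1 array (columns) minus the mean of the 4 WT arrays; red is above and blue below that mean. Lag3 is above the WT mean in all 4 IIKO arrays (0.29 to 0.57), while Btla and Havcr2 have opposite signs in IIKO arrays 1 and 2 against 3 and 4.

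The promoters of Btla (chr16:45224087-45224336, plus strand) and Havcr2 (chr11:46454681-46454930, plus strand), the genes that split the IIKO arrays in opposite directions, are shown with the same motifs in capitals.
Btla: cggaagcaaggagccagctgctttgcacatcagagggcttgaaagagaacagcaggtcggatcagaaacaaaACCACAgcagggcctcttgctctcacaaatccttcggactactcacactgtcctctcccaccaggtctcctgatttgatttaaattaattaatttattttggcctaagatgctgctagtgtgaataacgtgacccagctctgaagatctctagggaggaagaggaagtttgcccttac
Havcr2: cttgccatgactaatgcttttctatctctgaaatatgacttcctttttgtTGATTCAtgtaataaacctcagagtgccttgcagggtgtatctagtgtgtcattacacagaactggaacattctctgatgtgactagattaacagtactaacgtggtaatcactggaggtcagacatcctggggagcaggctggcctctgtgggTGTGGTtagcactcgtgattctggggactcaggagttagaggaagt
Btla held 1 match, of the RUNX motif on the opposite strand, 178 to 173 bases before the start. Havcr2 held 1 RUNX match 46 to 41 bases before the start and 1 AP-1 match, 200 to 194 bases before it, whose letters match on both strands. Of the 6 receptors searched, 4 held the RUNX letters, against 14% of all 32851 promoters, and 2 the NFAT letters, against 18.6%. The AP-1 letters were in 1, against 6.75%, and the forkhead letters in 0, against 3.17%. These counts over few promoters were not tested. The search covered the 250 bases before a start and included Pdcd1, with no match, and Cd96. Cd226 was not among the 6 and was not searched.

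The ligands and counter-receptors of these molecules, most of them known from antigen-presenting cells but also found on T cells, had 0 of 14 genes past the test, with 6 positive and 8 negative differences and a median of -0.03. Cd274, which encodes the PD-1 ligand PD-L1, was at 8.85 ± 0.10 in WT against 9.10 ± 0.16 in IIKO arrays (mean ± SD of 4 arrays; limma adjusted p = 0.201). It was the 1 gene of these 14 at an unadjusted p under 0.05, against 17.3% of all genes. Tnfrsf14, which encodes the BTLA ligand HVEM, differed by 0.19 ± 0.09 (SE) and Nectin2, a ligand of TIGIT and CD226, by -0.17 ± 0.08. Neither passed (limma adjusted p = 0.333 and 0.318). Nectin2 lies on chromosome 7. Without genes on chromosomes 7 and 17, a check chosen after seeing the data, 5 of 17267 genes passed in place of 57 of 19937. None of the 10 receptors lies on either chromosome.

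Other inhibitory or adhesion receptors of T cells had 0 of 13 measured genes past the test. They had 2 positive and 11 negative differences and a median of -0.07, against -0.04 over all genes. Of all genes, 37.1% had a positive difference, and among the dimmer 9969 genes 79.5% had a negative one. Some of the 13 lie below the median gene level of 7.10. At an unadjusted p under 0.05, 3 of the 13 were lower, against 12% of all genes. Cd200, which encodes the ligand of an inhibitory receptor of myeloid cells and is the direct neighbour of Btla on chromosome 16, was at 9.98 ± 0.16 in WT against 9.71 ± 0.18 in IIKO arrays (mean ± SD of 4 arrays; limma adjusted p = 0.232). Cd160, another receptor for HVEM, differed by -0.22 ± 0.09 (SE) and Vsir, which encodes VISTA, by -0.14 ± 0.06 (limma adjusted p = 0.252 and 0.263).

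Proteins that bind CTLA-4 or carry it to and from the cell surface had 0 of 14 genes past the test (5 positive, 9 negative, median -0.07). The 3 with the smallest p were Ppp2r1a, the scaffold subunit of the phosphatase PP2A (-0.20 ± 0.07, SE; limma adjusted p = 0.194), Rab8a, a GTPase of vesicle transport (0.19 ± 0.08; 0.257), and Prkch, the protein kinase C eta that CTLA-4 recruits in Tregs (-0.14 ± 0.09; 0.432). Ppp2r1a was the 1 gene of these 14 whose groups did not overlap, against 10.5% of all genes, and it lies on chromosome 17. Transducers of CD28 and ICOS signals had 0 of 12 measured genes past the test, over 11 positive differences and 1 negative, with a median of 0.06. Of all genes, 37.1% had a positive difference. The 12 all lie above the median gene level of 7.10. Among the 9968 brighter genes 46.3% had a negative difference, with a median of 0.01, against 79.5% among the dimmer ones. The smallest p values were of Pik3ca, a catalytic subunit of PI3 kinase (0.19 ± 0.09, SE), Carmil2, a CD28 adaptor (0.11 ± 0.07), and Vav1, a guanine nucleotide exchange factor (0.08 ± 0.05). Their limma adjusted p values were 0.29, 0.417 and 0.442, and 0 of the 12 lay under an unadjusted p of 0.05, against 17.3% of all genes.

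**Figure D4:**
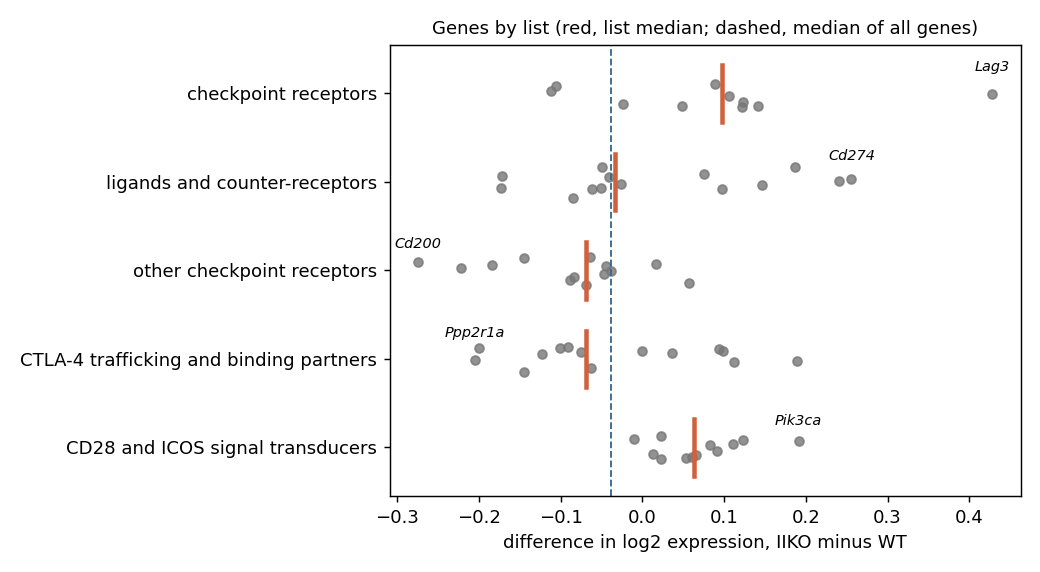
Difference in log2 expression (IIKO minus WT) of the 10 checkpoint receptors and of 4 lists of genes around them, 1 point per gene with vertical scatter for visibility; red bars are list medians and the dashed line is the median of all genes (-0.04). The receptors have a median of 0.10, and the points of Lag3 and Cd200 mark the widest positive and negative differences.

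The genes most like Ctla4 over the 8 arrays, by the root mean square difference of levels centred on each gene's mean, were Ip6k1 (0.03 log2), Slmap (0.04) and Wdr7 (0.04), among 15974 genes that varied at least as much. For Icos they were Pcmtd2 (0.03), Akap11 (0.04) and Smpdl3a (0.05), among 5400 genes. These are closest values out of many and carry no test.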

How the data were processed

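Transcripts were measured on 8 Affymetrix arrays, 4 of WT and 4 of IIKO chimera Tregs, with groups read from the sample titles. The authors deposited log2 expression for each probe set. Per the submitters' processing notes these came from affy and RMA, with versions not given in the sources used here. This method corrects background, makes the arrays' distributions alike and summarizes probes, so a shift shared by all genes would be removed. Scanner data were not used here, so background was not examined. Of 34760 probe sets, 21640 had 1 symbol in the platform annotation, 1321 several and 11799 none; for genes with several, the brightest was kept.

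The groups were set against each other in R 4.3.3 with limma 3.58.1 (lmFit and eBayes, two-sided, 6 residual degrees of freedom per gene, Benjamini-Hochberg over 19937 genes, threshold 0.05). The fit was tested on simulated data. Figures used matplotlib 3.10.9.

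The members and lists were chosen with earlier results of these data known. Some genes of the lists are not analysed here, and counts are over the measured members. Named are all 10 members, the 3 genes of each pathway list with the smallest p, Foxp3, Il2ra and Cd4, and for Ctla4 and Icos the 3 most similar genes. Klrg1, Gzmb, Tyrobp, Cd3e and Ikzf2 fall outside this rule and were named after their values were seen. Alternatives were a block for the replicate number, array weights, median centring, a further quantile normalization, only the brighter genes, a robust variance with a trend, averaged probe sets, a threshold of 0.01, each array left out, and, chosen after seeing the data, the genes of chromosomes 7 and 17 left out.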

Additional observations from a re-analysis of the deposited data

How the results depend on the processing

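Under every alternative run, 0 of the 10 receptors and 0 genes of the 4 pathway lists passed limma's adjusted threshold, with all arrays or with any 1 left out. At an unadjusted p under 0.05 there were 2 receptors in the full comparison, against 17.3% of all genes. There was 1 with the replicate block (17.3% of all genes) and 1 after a further quantile normalization (11.7%). There were 3 with a trended and robust variance (17.5%) and 4 with median centring (14.9%). With 1 array left out there were 1 or 2, against 12.7% to 20.3% of all genes. The directions of 8 receptors held in all 16 alternatives each. Several of these could not change a direction, as they left each receptor's difference as it was. They were the replicate block, the brighter genes alone, the robust variance with a trend, averaged probe sets, and chromosomes 7 and 17 left out. Havcr2 turned from -0.02 to 0.027 with arrays centred on their medians and to 0.0012 with array weights, and ran from -0.13 to 0.069 with 1 array left out. Btla turned from 0.05 to negative values with some arrays left out, over a range of -0.081 to 0.18. The count over all genes, 57, was 31 with the replicate number as a block, 21 at a threshold of 0.01, 5 without the genes of chromosomes 7 and 17 and 32 to 50 with 1 array left out; fewer samples or genes enter the last 2. Deviations of same-numbered arrays correlated over genes at 0.04, -0.01, -0.07 and 0.22 for numbers 1 to 4, and those of other-numbered arrays at -0.14 to 0.10. The value of number 4 was the highest of all, so the check was mixed, and the main fit did not pair the arrays. With the block no receptor passed the adjusted threshold (limma adjusted p of 0.197 for Lag3 and 0.336 for Ctla4). Ctla4 then no longer lay under an unadjusted limma p of 0.05 (0.0804). The number of arrays limits what can be seen: the 95% intervals were -0.34 to 0.43 log2 for Btla, -0.34 to 0.29 for Havcr2 and -0.39 to 0.18 for Cd96.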
